A study of Mus musculus with 3 samples.

Results

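The genes described here build and regulate cilia. They were chosen by name: every gene of the deposited table whose symbol starts with Ift, Bbs, Cfap, Tekt, Dnah, Dnai or Rsph followed by a digit, together with Foxj1, Rfx2, Rfx3 and Dynlrb2. The rule found 82 of the 31053 genes in the table. They comprised 11 IFT-B and 3 IFT-A genes of intraflagellar transport, 8 Bbs genes, 26 Cfap, 5 Tekt, 15 Dnah and 8 Rsph genes, the 4 genes added by name, and 2 RNAs of the opposite strand (Dnah2os and Ift88os). No symbol began with Dnai and a digit, since the 2 dynein intermediate chain genes of that kind were listed as Dnaic1 and Dnaic2; both were read with the other cilium genes. All 82 IDs had a position in GENCODE M21 (GRCm38).

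A cilium grows from a centriole that serves as its basal body, and its core of microtubule doublets is the axoneme. Motors carry cargo along it with the IFT-B complex on the outward way and the IFT-A complex on the return way, and the BBSome, named after Bardet-Biedl syndrome, moves membrane proteins in and out. Cilia that beat also carry dynein arms, radial spokes and filaments inside the doublets, and the factor FOXJ1 switches on many of the genes for these parts, while RFX factors act on ciliary genes more broadly. Each hair cell of the inner ear carries a single cilium, the kinocilium, at the edge of its bundle of stereocilia. In the mouse cochlea the kinocilium is present while the bundle forms and is lost as hair cells mature.

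The data came from cochlear organoids of C57BL/6 mice, grown in 3D from Lgr5+ progenitors. Each of the 3 groups was 1 single-cell library: expansion (passage 2, day 8 in expansion medium), day 5 of differentiation, and day 25. Expansion medium contained EGF at 20, bFGF at 10 and IGF at 50 ng/mL, and CHIR99021, Y-27632 and LPA (3, 10 and 2.5, with the unit written as um); differentiation medium contained bFGF, BDNF, Shh, A83-01 and RA, plus LY4115775 up to day 5. All organoids were dissociated with trypsin (0.125%, 25 min), and living single cells were sorted with DAPI before droplet capture. How many animals or cultures went into a library was not given in the sources used here.

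After filtering, 25038, 13227 and 6126 cells were kept from the expansion, day 5 and day 25 libraries, holding 170196145, 130899235 and 72529004 unique molecular identifiers (UMIs, the transcript count), with medians of 4543, 5824 and 8466 UMIs per cell. Between 20 and 107 cell barcodes were shared by a pair of libraries, at most 0.809% of the kept cells of either. With 1 library in each group there is no replicate error and no test: levels are UMIs summed over cells and scaled to a common total (CPM), with exact 95% Poisson intervals, ratios have exact 95% binomial intervals, and both cover counting error only. A gene was counted as measured with at least 5 CPM in either of the 2 groups compared and at least 10 UMIs in the higher one, and called higher or lower where its CPM + 1 differed at least 2-fold. A gene that is measured through 1 group alone is mostly one that differs, so counts are set against the percentage of all measured genes that passed the same bound.

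Levels were read in 3 classes of cells. Pou4f3-positive cells had at least 2 UMIs of Pou4f3, the hair cell transcription factor, and numbered 121 (0.483% of kept cells), 311 (2.35%) and 1533 (25.0%) in the expansion, day 5 and day 25 libraries. Otor-high cells had at least 1000 CPM of Otor and more Otor than Epcam UMIs, and numbered 4584, 4778 and 483. Other Epcam-positive cells had at least 2 Epcam UMIs and fewer than 2 of Pou4f3, and numbered 14020, 6530 and 3690. The remaining 6313, 1608 and 420 cells were not classified. The 16 hair cell markers summed to 4371, 11465 and 14033 CPM in Pou4f3-positive cells of the 3 libraries. In other Epcam-positive cells they summed to 130, 127 and 302 CPM. Pou4f3, which defines the class, is among the 16 markers and gave 451, 606 and 808 CPM of the Pou4f3-positive sums. Most of each sum thus came from the other markers. Otoferlin (Otof), the calcium sensor of the hair cell synapse, had 106, 525 and 298 CPM in Pou4f3-positive cells. Otic mesenchyme markers summed to 2719, 9169 and 5530 CPM in Otor-high cells, against 420, 1358 and 430 CPM in other Epcam-positive cells. Otor, which defines the class, alone gave 2368, 8313 and 4822 CPM of the Otor-high sums. Pou3f4 (144, 287 and 224 CPM in Otor-high cells), Tbx18 and Col3a1 were also higher there in all 3 libraries. Dcn was lower in all 3, with 22.03, 65.78 and 22.96 CPM against 389, 1243 and 420 CPM. Postn was higher in Otor-high cells on days 5 and 25, with 18.9 and 74.9 CPM against 0.430 and 0.163 CPM. In expansion it had 0 CPM against 0.0466 CPM, too little to give a direction. Col1a1 and Col1a2 did not keep the same direction. Unclassified cells on days 5 and 25 held hair cell markers as well (3502 and 5045 CPM), and are not part of the Pou4f3-positive class.

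Of the 82 genes, 55 reached 5 CPM with at least 10 UMIs in at least 1 of the 9 combinations of class and library, 12 stayed under 1 CPM in all 9, and none was without a UMI. The heat map of the genes that reached 5 CPM shows the difference between the families. IFT genes appear in every class, while most axonemal genes are near the bottom of the scale outside the Pou4f3-positive class.

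**Figure D1:**
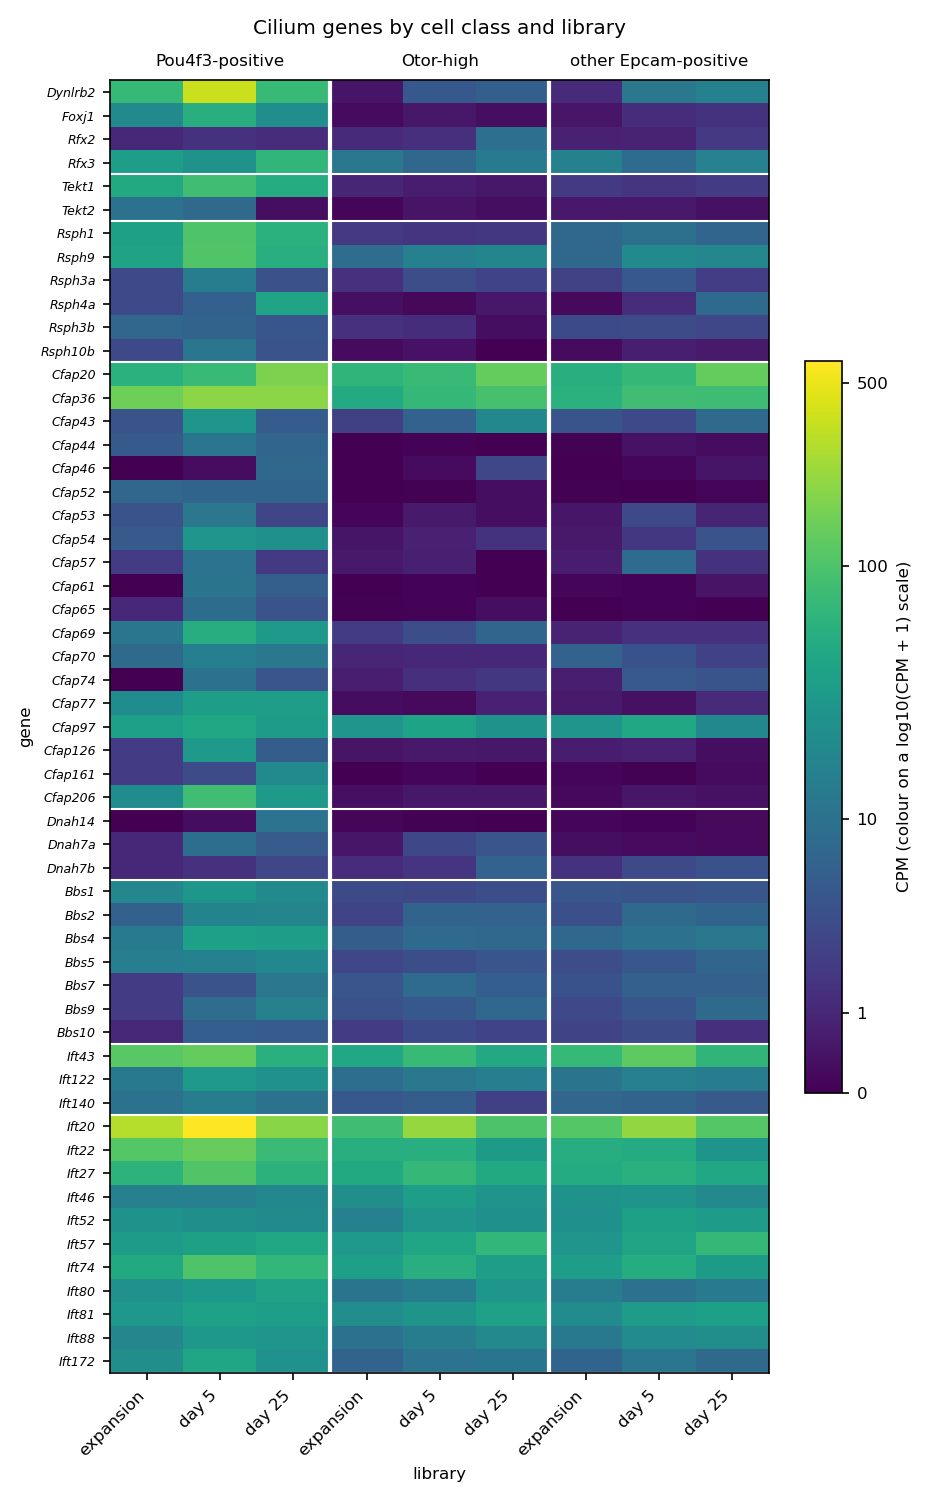
Levels of the 55 cilium genes with at least 5 CPM in a class, as colour on a log10(CPM + 1) scale, by class and library; rows are grouped into Foxj1, Rfx and Dynlrb2, then Tekt, Rsph, Cfap, Dnah, Bbs, IFT-A and IFT-B genes. Tekt1 has 48.4 to 83.5 CPM in Pou4f3-positive cells and at most 2.08 CPM in the other classes, while Ift57 has 27.5 to 70.8 CPM across all classes.

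Cilium genes were higher in Pou4f3-positive than in other Epcam-positive cells of the same library, and none of the 82 was lower by the 2-fold bound. In expansion organoids 16 of 30 measured genes were higher, against 12.7% of all measured genes (13.8% of all were lower). On day 5 the count was 31 of 50, against 19% of all measured genes (18% lower), and on day 25 it was 30 of 45, against 20.7% (18.9% lower). Restricted to genes with at least 5 CPM in both classes, 7 of 21, 10 of 24 and 13 of 27 cilium genes were higher, against 8.16%, 12.9% and 14.8% of all such genes (0 were lower, against 9.67%, 12.5% and 12.5%). In expansion the background depended on doublets: with called doublets kept, 550 of all measured genes were lower, in place of 1364. Among genes with at least 5 CPM in both classes, 3 of 5, 4 of 7 and 5 of 8 axonemal genes (Cfap, Tekt, Dnah, Rsph, Foxj1 and Dynlrb2, 56 in all) were higher in expansion, day 5 and day 25, and 3 of 14, 4 of 14 and 4 of 13 IFT genes. The median log2 ratio over the 12, 28 and 23 axonemal genes measured was 2.77, 2.93 and 2.41, but most of them were measured through the Pou4f3-positive class alone, which makes these medians large by selection. With no CPM minimum the axonemal medians were 0.68, 1.31 and 0.90, the medians of the 14 IFT genes 0.47, 0.91 and 0.59, and those of all genes -0.03, -0.03 and 0.05.

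**Figure D2:**
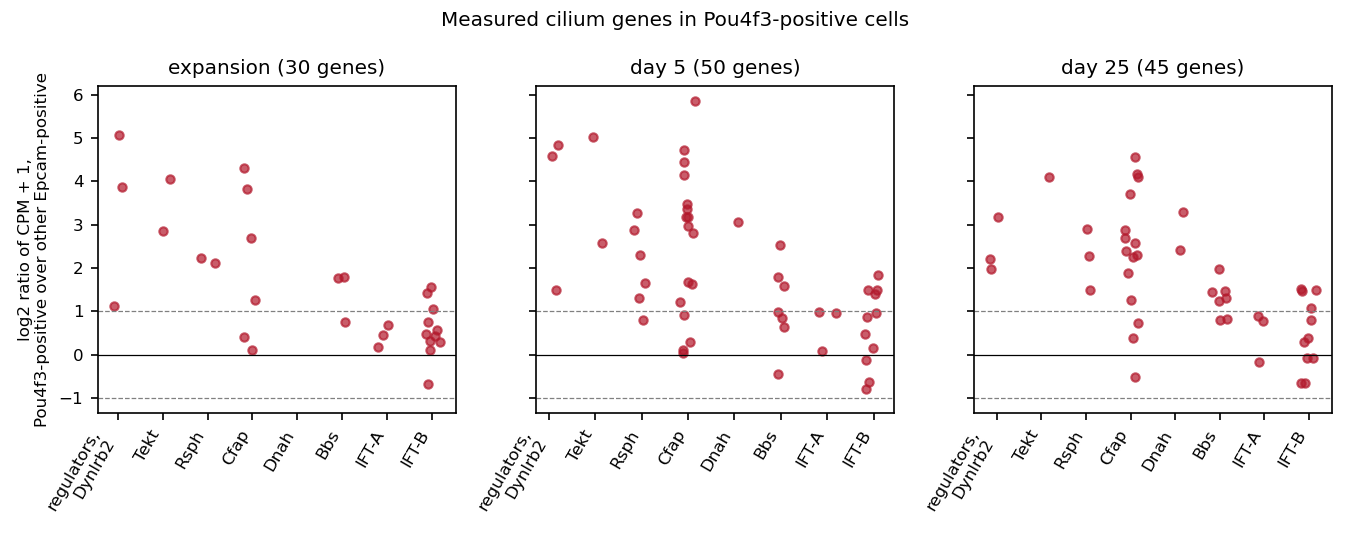
Log2 ratio of CPM + 1, Pou4f3-positive over other Epcam-positive cells, for the 30, 50 and 45 measured cilium genes of the expansion, day 5 and day 25 libraries, 1 point per gene by family; dashed lines mark 2-fold either way. Points of the Tekt, Rsph and Cfap families and Foxj1 and Dynlrb2 lie mostly above the upper line, and none lies under the lower one.

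Of the regulators, Foxj1 (chr11:116330704-116335399, minus strand) had 20.6, 54.9 and 22.2 CPM in Pou4f3-positive cells of the expansion, day 5 and day 25 libraries, against 0.466, 1.31 and 1.55 CPM in other Epcam-positive cells. The ratios were 44.2 (25.2 to 74.3), 41.8 (33.3 to 52.7) and 14.3 (11.2 to 18.5), and Otor-high cells had at most 0.522 CPM. Foxj1 is the factor that defines motile ciliogenesis, and its level was highest in the day 5 library. Rfx3 (chr19:27761721-28011166, minus strand), which is known to act on ciliary genes in many tissues and in hair cells, had 35.0, 25.6 and 66.5 CPM in Pou4f3-positive cells, against 15.6, 8.45 and 16.2 CPM in other Epcam-positive cells. Its ratios were 2.25 (1.55 to 3.15), 3.03 (2.44 to 3.72) and 4.11 (3.75 to 4.50). Otor-high cells had 12.1, 7.65 and 13.3 CPM of Rfx3, and its highest level in Pou4f3-positive cells was on day 25. Rfx2, the paralogue of Rfx3, had 1.03, 1.49 and 1.28 CPM in Pou4f3-positive cells and 0.793, 0.872 and 1.90 CPM in other Epcam-positive cells, too little to be measured there.

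RFX factors bind the X-box, a motif with a pair of mirrored arms, of which GTTGCC is a common spelling. RefSeq promoter windows (GRCm38.p6, 250 bases before to 50 after the start) were found for 66 of the 82 genes, and 26 of them (39.4%) held GTTGCC on either strand, against 3821 of 27025 windows in the table (14.1%). The arm was in 5 of 11 IFT, 3 of 8 Bbs and 16 of 45 axonemal windows, and in 9 of the 21 windows of genes that were higher in Pou4f3-positive cells in at least 2 libraries (42.9%). A full X-box with both arms was in 1 of the 66 windows, that of Bbs7, against 0.529% of all windows. A shorter fused spelling was in 1, that of Cfap74, against 0.633%, and the forkhead core GTAAACA was in 4 (6.06%), against 4.05%. The shares were not matched for base composition. Stretches of 60 bases around an arm are shown for genes with large ratios between the classes (Dynlrb2, Tekt1, Cfap161 and Cfap44) and for an IFT gene that was not called (Ift57). The stretch shown for Tekt1 lies inside the gene span that GENCODE gives, so the RefSeq and GENCODE starts of Tekt1 differ. The arm lay 51, 15, 39, 19 and 60 bases before the RefSeq start of the genes shown. Capitals mark that copy of GTTGCC or of its reverse complement GGCAAC; further copies are in lower case.
Dynlrb2, chr8:116504937-116504996, plus strand: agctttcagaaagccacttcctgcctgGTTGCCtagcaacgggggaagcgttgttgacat
Tekt1, chr11:72361883-72361942, minus strand: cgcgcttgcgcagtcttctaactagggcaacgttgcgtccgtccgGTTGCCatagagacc
Cfap161, chr7:83794846-83794905, minus strand: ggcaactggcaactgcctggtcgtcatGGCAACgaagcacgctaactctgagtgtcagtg
Cfap44, chr16:44394739-44394798, plus strand: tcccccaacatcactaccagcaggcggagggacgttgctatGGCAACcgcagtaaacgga
Ift57, chr16:49699207-49699266, plus strand: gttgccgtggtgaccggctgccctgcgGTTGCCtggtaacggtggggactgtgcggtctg
A match is a run of letters and does not show that a factor binds there.

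Dynlrb2 (chr8:116504974-116515915, plus strand), a roadblock light chain of dynein, had 73.1 CPM (57.1 to 92.2), 362 CPM (344 to 381) and 76.7 CPM (72.7 to 80.9) in Pou4f3-positive cells of the expansion, day 5 and day 25 libraries. Other Epcam-positive cells had 1.21, 11.6 and 15.9 CPM, and Otor-high cells 0.440, 4.82 and 6.00 CPM. The ratio of Pou4f3-positive to other Epcam-positive cells was 60.3 (44.9 to 80.3), 31.2 (28.8 to 33.8) and 4.82 (4.41 to 5.27). The day 5 Pou4f3-positive cells stood far above all other combinations.

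The tektins are filament proteins inside the doublet wall. Tekt1 (chr11:72344722-72362442, minus strand) had 48.4, 83.5 and 51.9 CPM in Pou4f3-positive cells, against 1.99, 1.60 and 2.08 CPM in other Epcam-positive cells, ratios of 24.3 (17.4 to 33.3), 52.2 (42.8 to 63.8) and 24.9 (20.3 to 30.9). Tekt2 had 10.3 and 8.20 CPM in Pou4f3-positive cells of the expansion and day 5 libraries, against 0.567 and 0.541 CPM in other Epcam-positive cells. On day 25 Tekt2 was at 0.278 CPM (5 UMIs) in Pou4f3-positive cells and 0.347 CPM in other Epcam-positive cells, so Tekt1 kept its difference between the classes while Tekt2 was no longer measured. Tekt3, Tekt4 and Tekt5 stayed under 2 CPM in every class.

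Of the radial spoke genes, the head genes Rsph1 and Rsph9 were higher in Pou4f3-positive cells in all 3 libraries. Rsph1 had 37.1, 102 and 59.3 CPM there, against 7.72, 9.62 and 7.0 CPM in other Epcam-positive cells. Rsph9 had 39.1, 106 and 54.3 CPM, against 7.58, 20.6 and 18.6 CPM. Rsph4a, another head gene (chr10:33905111-33916021, plus strand), followed another course, with 3.09, 6.21 and 41.8 CPM in Pou4f3-positive cells and 0.171, 1.28 and 7.86 CPM in other Epcam-positive cells, a day 25 ratio of 5.32 (4.70 to 6.03). Rsph3a and Rsph3b are near-identical copies whose UMIs cannot be divided with certainty; Rsph3a was higher on day 5 (13.7 CPM in Pou4f3-positive cells, 4.91 CPM in other Epcam-positive cells).

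Among the Cfap genes, Cfap206 (chr4:34688559-34730206, minus strand), which encodes a protein at the base of radial spokes, had the largest log2 ratio on days 5 and 25. It had 21.6, 85.2 and 30.5 CPM in Pou4f3-positive cells and 0.148, 0.485 and 0.327 CPM in other Epcam-positive cells, ratios of 146 (74.9 to 288), 176 (128 to 246) and 93.2 (56.9 to 164). Cfap77, a protein inside the doublets, had 21.6, 34.5 and 35.5 CPM against 0.591, 0.342 and 1.14 CPM. Cfap69, known from the axonemes of sperm and olfactory cilia, had 11.3, 53.7 and 31.5 CPM against 0.909, 1.5 and 1.47 CPM. These 3 genes, with Cfap36, were the Cfap genes higher in Pou4f3-positive cells of all 3 libraries.

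Other Cfap genes were higher in part of the libraries. Cfap126 (Flattop), known in mouse hair cells for a role in placing the basal body, had 2.06, 30.8 and 5.67 CPM in Pou4f3-positive cells, against 0.622, 0.794 and 0.265 CPM in other Epcam-positive cells. Cfap161, a doublet protein, had 2.06, 3.48 and 20.6 CPM against 0.109, 0.0331 and 0.204 CPM, and it reached 5 CPM only on day 25, with a ratio of 101 (54.3 to 212). Cfap54, of the central apparatus, had 5.15, 28.1 and 24.0 CPM against 0.536, 1.84 and 4.21 CPM. Cfap70 had 8.24, 14.9 and 12.1 CPM against 6.42, 3.97 and 2.53 CPM and was higher on days 5 and 25. Cfap20, a doublet protein found in primary and motile cilia, had 58.7, 76.5 and 172 CPM in Pou4f3-positive cells and 54.4, 71.0 and 132 CPM in other Epcam-positive cells, and was not called in any library, as Cfap97 was not. Cfap221 and Cfap73 had no UMI in Pou4f3-positive cells.

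The dynein heavy chains are the motors of the dynein arms, and they had few UMIs. The 15 Dnah genes summed to 7.21 CPM (2.90 to 14.8), 24.3 CPM (19.8 to 29.7) and 28.4 CPM (26.0 to 31.0) in Pou4f3-positive cells, against 4.0, 6.82 and 8.62 CPM in other Epcam-positive cells. The outer arm chain gene Dnah5 had 1, 2 and 1 UMIs in the Pou4f3-positive cells of the 3 libraries and Dnah9 had 1, 13 and 22. Only Dnah7a and Dnah14 reached 5 CPM there. Dnah14 had 0, 1 and 187 UMIs (10.4 CPM on day 25) in Pou4f3-positive cells, against 0.163 CPM in day 25 other Epcam-positive cells, a ratio of 63.6 (31.6 to 150). Dnah7a, an inner arm chain gene, had 1.03, 9.19 and 5.28 CPM against 0.264, 0.221 and 0.184 CPM; its day 25 level lies just above the 5 CPM bound.

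Dnah7a belongs to a cluster of copies on chromosome 1, and its UMIs cannot be told with certainty from those of Dnah7b and Dnah7c. The 60 bases around its X-box arm and those of Dnah7c matched at 51 of 60 bases, while Dnah7b matched Dnah7a at 26 of 60. Both are shown for that likeness, with the arm in capitals.
Dnah7a, chr1:53706952-53707011, minus strand: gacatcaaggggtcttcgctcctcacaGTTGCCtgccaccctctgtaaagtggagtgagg
Dnah7c, chr1:46425272-46425331, plus strand: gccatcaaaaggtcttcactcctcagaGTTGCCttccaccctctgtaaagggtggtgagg
Dnah7b did not show the Dnah7a pattern, with 1.03, 1.49 and 2.89 CPM in Pou4f3-positive cells against 1.55, 3.07 and 4.0 CPM in other Epcam-positive cells.

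Of the IFT genes, Ift172 and Ift22, both IFT-B genes, were higher in Pou4f3-positive cells of all 3 libraries. Ift172 had 22.7, 43.0 and 24.6 CPM there against 6.99, 11.3 and 8.23 CPM in other Epcam-positive cells. Ift22, a GTPase-like subunit, had 112, 136 and 77.8 CPM against 53.4, 50.7 and 26.6 CPM; its expansion ratio, 2.10 (1.72 to 2.54), fell under the bound with TMM scaling (log2 0.95). Ift20, an IFT-B subunit that is also known at the Golgi, had 297, 608 and 196 CPM against 110, 217 and 111 CPM and was called in the first 2 libraries. The GTPase gene Ift27 had 62.8, 106 and 60.5 CPM against 50.1, 57.7 and 45.8 CPM, within 2-fold throughout. The IFT-A genes Ift43, Ift122 and Ift140 were not called in any library; Ift43 had 117, 132 and 58.2 CPM in Pou4f3-positive cells and 72.6, 124 and 65.2 CPM in other Epcam-positive cells. Ift57 had 34.0, 37.3 and 45 CPM against 27.5, 40.8 and 70.8 CPM, so that its day 25 value was the lower one in Pou4f3-positive cells, within 2-fold.

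The 8 Bbs genes summed to 58.7 CPM (44.4 to 76.0), 121 CPM (111 to 132) and 127 CPM (122 to 132) in Pou4f3-positive cells, against 31.4, 42.7 and 47.5 CPM in other Epcam-positive cells. The BBSome genes Bbs1 and Bbs5 were higher in all 3 libraries. Bbs1 had 18.5, 29.1 and 20.7 CPM in Pou4f3-positive cells against 4.59, 4.20 and 4.51 CPM. Bbs5 had 14.4, 15.9 and 19.2 CPM against 3.54, 4.67 and 7.09 CPM, and Bbs4 had 13.4, 36.5 and 34.4 CPM against 7.50, 9.90 and 11.8 CPM.

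Across the 3 libraries, 29 genes were measured in each. Higher in Pou4f3-positive cells of all 3 were 14 genes, namely Foxj1, Rfx3, Dynlrb2, Tekt1, Rsph1, Rsph9, Cfap36, Cfap69, Cfap77, Cfap206, Ift22, Ift172, Bbs1 and Bbs5. A further 12 were higher in 2 libraries and 11 in 1, among them 11 Cfap genes besides Dnah14 and Rsph4a, and 0 were lower in any. How many of all genes were higher in 3, 2 or 1 libraries was not counted, so these counts have no background. Within each library 12.7%, 19% and 20.7% of all measured genes were higher. With called doublets kept, Rfx3, Cfap36 and Ift22 were no longer called in expansion (log2 ratios of 0.87, 0.87 and 0.83). Counting cells with 1 Pou4f3 UMI as positive, Rfx3, Cfap36 and Ift22 were not called on day 5 (0.98, 0.87 and 0.99), nor was Ift22 in expansion (0.94), and with cells weighted equally Bbs5 was not called on day 5 (0.90).

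The relation of axonemal levels to the number of Pou4f3 UMIs differed between libraries. For the sums that follow, Cfap20, Cfap36 and Cfap97 were left out of the axonemal genes after their levels in all classes had been seen. In expansion the other 53 axonemal genes summed to 45.2, 139, 310 (269 to 356) and 473 CPM (398 to 558) in cells with 0, 1, 2 to 4 and 5 to 9 Pou4f3 UMIs, larger at each step. On day 5 they summed to 91.9, 113, 1090, 1235 and 1129 CPM in cells with 0, 1, 2 to 4, 5 to 9 and 10 or more Pou4f3 UMIs, where cells with 0 or 1 were Epcam-positive. On day 25 the sums were 92.4, 153, 566, 567 and 553 CPM. In all 3 libraries cells with 0 or 1 had to be Epcam-positive and those with more did not, so the choice of cells changes at 2 UMIs. On day 5 the median depth was 21633.5 UMIs at 1 Pou4f3 UMI and 2901 UMIs at 2 to 4. The day 5 and day 25 courses step up between 1 and 2 UMIs, and the part of this choice in the step was not tested. From 2 UMIs on they are level, although the median depth of the day 5 cells ran from 2901 UMIs to 30414 UMIs at 10 or more. Bbs genes differed in this, with 76.2, 106 and 144 CPM on day 5 over the last 3 steps.

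**Figure D3:**
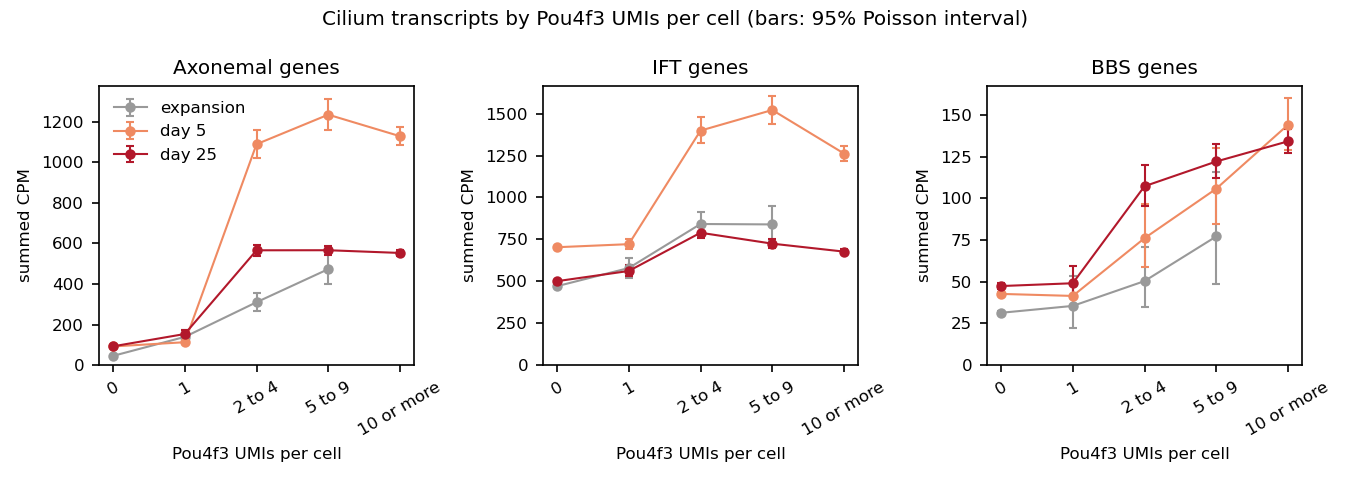
Summed CPM of 53 axonemal, 14 IFT and 8 Bbs genes (vertical axes) against Pou4f3 UMIs per cell (horizontal axes) in each library, with 95% Poisson intervals; the expansion library has 2 cells with 10 or more and no point there. Axonemal levels of day 5 cells step from 113 CPM at 1 UMI to 1090 CPM at 2 to 4 UMIs, and those of day 25 cells from 153 to 566 CPM.

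Axonemal transcripts were spread over many Pou4f3-positive cells. UMIs of at least 5 of the 53 axonemal genes were found in 20 of 121 (16.5%), 183 of 311 (58.8%) and 676 of 1533 (44.1%) Pou4f3-positive cells, against 9 (0.0642%), 209 (3.2%) and 91 (2.47%) of the other Epcam-positive cells. With Cfap20, Cfap36 and Cfap97 counted as well, the Pou4f3-positive shares were 27.3%, 68.2% and 67.3%, against 1.88%, 17.6% and 13.6% of other Epcam-positive cells. The other Epcam-positive cells with 5 or more on day 5 were deep, with a median of 44154 UMIs. With each cell thinned to 2000 UMIs, at least 2 of the 53 genes were found in 17.1% (10.8 to 25.2), 62.4% (56.2 to 68.2) and 31.5% (29.2 to 33.9) of Pou4f3-positive cells. The same share was 0.420%, 1.83% and 1.82% in other Epcam-positive cells and 0.159%, 0.644% and 0.419% in Otor-high cells. Foxj1 and Dynlrb2 are among the 53 genes, and Dynlrb2 alone was found in 58.6% of the thinned day 5 Pou4f3-positive cells.

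At this common depth Dynlrb2 was found in 10.3%, 58.6% and 15.9% of Pou4f3-positive cells of the expansion, day 5 and day 25 libraries, against 0.288%, 2.17% and 2.73% of other Epcam-positive cells and 0.136%, 1.24% and 0.839% of Otor-high cells, a class that serves as background here. Without thinning the Pou4f3-positive shares were 33.1%, 87.5% and 52.1%. Foxj1 was found in 5.13%, 9.89% and 4.30% of thinned Pou4f3-positive cells and in 0.0227%, 0.115% and 0% of Otor-high cells. Thinning left out 4, 48 and 45 Pou4f3-positive cells with fewer UMIs.

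Axonemal genes are also known from cells that carry many motile cilia, and the markers of such cells were read beside these values. The 9 multiciliated cell markers summed to 45.3, 302 and 10.4 CPM in Pou4f3-positive cells, against 2.37, 2.21 and 1.45 CPM in other Epcam-positive cells. Of the Pou4f3-positive sums, 1110017D15Rik alone gave 38.1, 296 and 8.50 CPM. Fam183b was also higher there, with 6.18 and 6.71 CPM in expansion and on day 5. Other Epcam-positive cells had 0.00777 and 0.011 CPM of Fam183b in these libraries. On day 25 Fam183b was under 5 CPM in both classes, and again higher in Pou4f3-positive cells. Ccno and Deup1 stayed under 5 CPM in both classes of each library. Mcidas, which starts the multiciliated program, and Ccdc153, Tmem212, Sntn and Cdhr3 had 0 UMIs in Pou4f3-positive cells of all 3 libraries; of the 9 markers 6, 7 and 5 were at 0. Zero counts allow up to 3.09, 0.745 and 0.167 CPM (3 UMIs).

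Within the Pou4f3-positive class the axonemal genes were higher in the day 5 library than in the other libraries. The 53 genes summed to 354 CPM (318 to 394) in expansion, 1142 CPM (1110 to 1176) on day 5 and 558 CPM (548 to 570) on day 25. Dynlrb2 alone gave 73.1, 362 and 76.7 CPM of these sums. The IFT genes summed to 831, 1346 and 706 CPM, also with the day 5 value on top. This IFT order was not particular to the class. Other Epcam-positive cells had IFT sums of 471, 704 and 503 CPM, and Otor-high cells 405.2, 657.5 and 495.3 CPM. In other Epcam-positive cells the axonemal sum was 45.7, 92.7 and 94.9 CPM, without such a peak. Of the 16 hair cell markers 6 also had their highest level in Pou4f3-positive cells on day 5 (Otof, Myo7a, Cib2, Acbd7, Pvalb and Rasd2) and 10 on day 25, among them Ocm, with 2815 CPM on day 25 against 71.0 CPM on day 5. The neuron markers summed to 232, 488 and 1171 CPM. The libraries also differ in class depth, with medians of 6119, 8585 and 9582 UMIs in Pou4f3-positive cells, and the part of this in the result was not tested beyond the thinned shares above. Time and library cannot be told apart, and the day 25 counts come from a later Cell Ranger version.

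Day 5 over expansion, 25 of 47 measured genes were higher in Pou4f3-positive cells and 0 were lower, against 17.9% higher and 8.69% lower of all measured genes. Of the 34 genes with at least 5 CPM in both libraries 13 were higher and 0 lower, against 12.9% and 6.08% of all such genes. Dynlrb2 differed 4.95-fold (3.90 to 6.38), Cfap206 3.94-fold (2.54 to 6.45), Cfap69 4.74-fold (2.60 to 9.63) and Foxj1 2.67-fold (1.68 to 4.45). Cfap61 and Cfap74 had 0 UMIs in expansion and were at least 3.46-fold and 3.30-fold higher on day 5. Wide intervals came with the 971250 UMIs of the expansion class: Cfap126 had 2 UMIs there and a ratio of 15 (4.05 to 125). Ift20, with 608 and 297 CPM, had a ratio of 2.05 (1.81 to 2.33), which was just short of the bound with TMM scaling (log2 0.99). Counting cells with 1 Pou4f3 UMI as positive left 16 genes higher.

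Day 25 over day 5, 13 of 53 measured genes were lower and 7 were higher in Pou4f3-positive cells, against 9.78% lower and 18.1% higher of all measured genes. Of the 41 genes with at least 5 CPM on both days 7 were lower and 3 higher, against 6.91% and 14.4% of all such genes. The day 5 library enters this and the preceding comparison. The median log2 ratio was -0.75 over axonemal and -0.38 over IFT genes, beside 0.18 over all genes. Genes lower on day 25 included Dynlrb2, with 76.7 CPM on day 25 and 362 CPM on day 5, a ratio of 0.212 (0.197 to 0.228). Ift20 had 196 CPM on day 25 and 608 CPM on day 5, a ratio of 0.322 (0.306 to 0.339), and Cfap206 had 30.5 and 85.2 CPM. Tekt2 and Cfap126 were lower too, with 0.278 and 5.67 CPM on day 25 and 8.20 and 30.8 CPM on day 5. Foxj1 had a ratio of 0.404 (0.342 to 0.478), which no longer passed the bound when cells with 1 Pou4f3 UMI were included (log2 -0.56) or when cells were weighted equally (log2 -0.88). Cfap206 likewise lost its call with cells of 1 Pou4f3 UMI (log2 -0.77). Tekt1 stayed within 2-fold.

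The 7 genes higher on day 25 were Rfx3, Rsph4a, Cfap161, Dnah14, Cfap46, Cfap20 and Bbs7. Rsph4a had 41.8 CPM on day 25 and 6.21 CPM on day 5 in Pou4f3-positive cells, a ratio of 6.73 (4.52 to 10.5). Cfap161 had 20.6 and 3.48 CPM, a ratio of 5.93 (3.49 to 11), and Rfx3 66.5 and 25.6 CPM, a ratio of 2.60 (2.12 to 3.21). Cfap46, a gene of the central apparatus, had 137 UMIs on day 25 and 1 on day 5, and Dnah14 had 187 and 1. The day 25 library thus held some axonemal genes at levels above day 5 in a class where the axonemal sum was lower. Day 25 over expansion, 15 of 45 genes were higher and 1, Tekt2, was lower, against 29.9% and 11.9% of all measured genes, a share near the background for the higher ones. With at least 5 CPM in both libraries 5 of 33 were higher and 0 lower, against 24.4% and 8.96%.

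**Figure D4:**
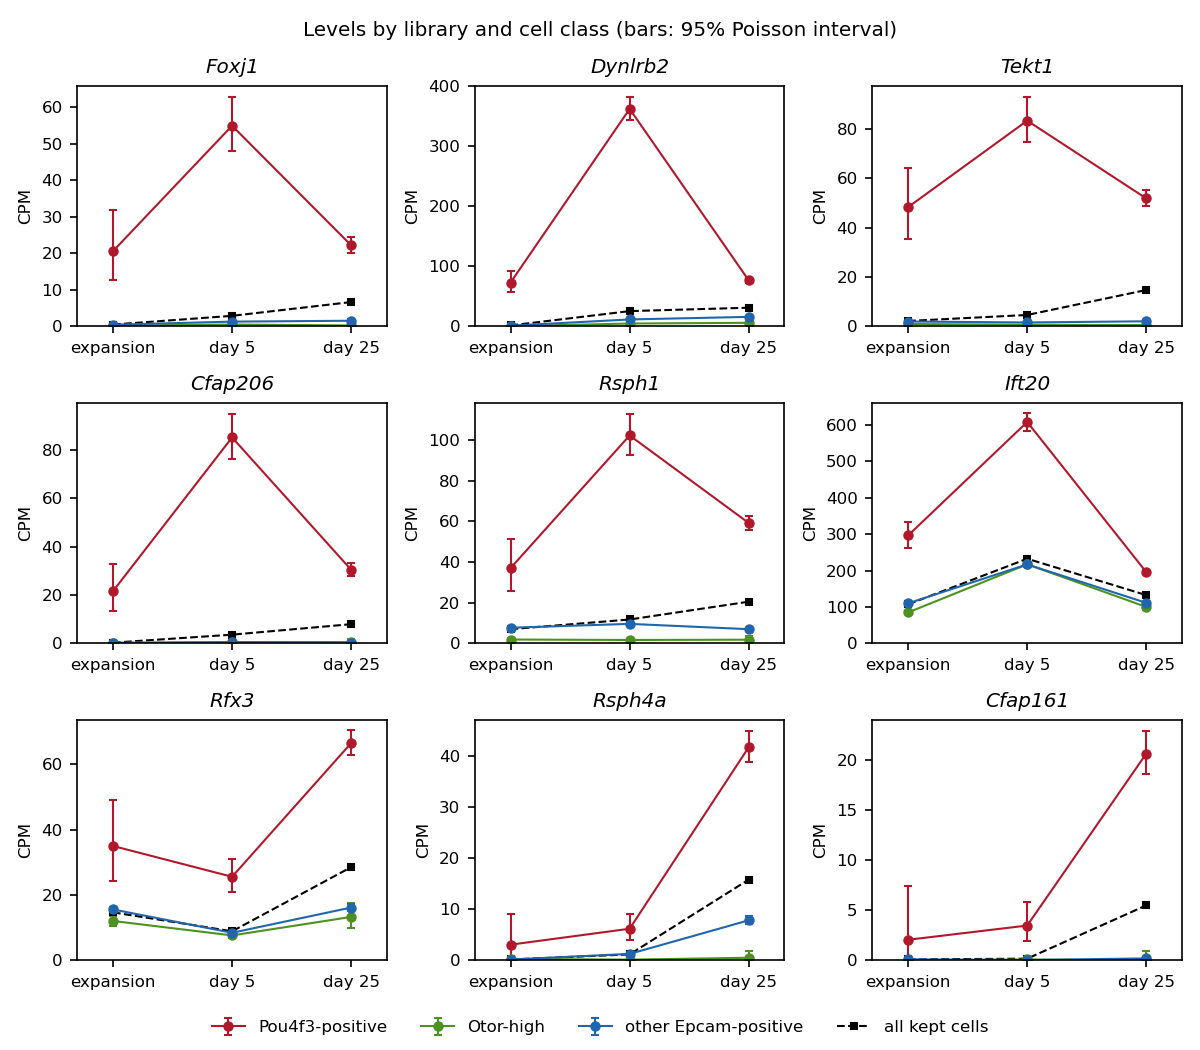
CPM of 9 cilium genes (vertical axes) in the expansion, day 5 and day 25 libraries (horizontal axes) by cell class, with 95% Poisson intervals, and in all kept cells (dashed). In Pou4f3-positive cells the first 6 genes peak on day 5, as Dynlrb2 with 362 CPM, and Rfx3, Rsph4a and Cfap161 are highest on day 25; in all kept cells Foxj1 is highest on day 25, with 6.66 CPM.

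Summed over whole libraries the order was different. Pou4f3-positive cells held 0.571%, 3.08% and 24.8% of all UMIs in the expansion, day 5 and day 25 libraries. Foxj1 had 0.511, 2.90 and 6.66 CPM over all kept cells of the expansion, day 5 and day 25 libraries, although its level within the Pou4f3-positive class was lower on day 25 than on day 5. Pou4f3-positive cells held 23.0%, 58.3% and 82.6% of all Foxj1 UMIs, 12.5%, 55.3% and 87.2% of those of Tekt1 and 38.9%, 72.4% and 95% of those of Cfap206. For Ift57 the shares were 0.679%, 2.79% and 17.4%, close to or under the class's share of all UMIs.

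Day 5 over expansion, 4 of 26 genes measured in whole libraries were higher and 0 lower, against 16.9% and 7.87% of all measured genes. They were Dynlrb2 (25.5 CPM on day 5 and 1.63 CPM in expansion), Cfap57 (6.40 and 0.593), Rsph9 (22.5 and 7.92) and Ift20 (233 and 107), of which Ift20 was not called with TMM scaling (log2 0.79). Day 25 over day 5, 7 of 37 were higher and 1, Cfap57, was lower, against 19.1% and 6.98%. The higher ones included Rsph4a (15.8 CPM on day 25 and 1.18 CPM on day 5), Rfx3 (28.5 and 8.91) and Tekt1 (14.8 and 4.64). Day 25 over expansion, 17 of 37 were higher and 0 lower, against 31.6% and 9.7%. These calls depend on the scaling. With TMM scaling, day 25 over expansion had 9 cilium genes higher and 1 lower, while the median of all genes was -0.15 in place of 0.45 and their split was 2003 higher and 2321 lower, in place of 3552 and 1089. Day 25 over day 5 had 5 higher and 4 lower, with a median of all genes of -0.07 in place of 0.21 and a split of 1455 and 1362, in place of 2136 and 780. For day 5 over expansion the median was -0.11 in place of 0.22 and the split 1180 and 1344, in place of 1824 and 851.

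Otor-high cells had few cilium genes above the other Epcam-positive cells. In expansion 0 of 22 measured genes were higher and 2 lower, against 5.03% and 14% of all measured genes; on day 5 the counts were 0 and 3 of 26, against 11.8% and 11.9%. On day 25 they were 4 and 3 of 30, against 14% and 13.1%. Rsph1 was lower in Otor-high cells of all 3 libraries, with 1.90, 1.69 and 1.83 CPM against 7.72, 9.62 and 7.0 CPM in other Epcam-positive cells. Rfx2 had 9.39 CPM (6.58 to 13.0, from 36 UMIs) in day 25 Otor-high cells, against 1.90 CPM in other Epcam-positive cells, the only class of the 9 in which it passed 5 CPM. Cfap43 had 19.0 CPM there against 8.17 CPM, a ratio of 2.33 (1.79 to 3.00) that fell just short of the bound with TMM scaling (log2 0.99).

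Within the other Epcam-positive cells 3 of 26 measured genes were higher and 0 lower day 5 over expansion, against 14.5% and 10.7% of all measured genes. They were Cfap57 (8.30 CPM on day 5 and 0.614 CPM in expansion), Dynlrb2 (11.6 and 1.21) and Rsph9 (20.6 and 7.58). Day 25 over day 5, 2 of 29 were higher and 2 lower, against 16.8% and 6.8%: Rsph4a (7.86 CPM on day 25 and 1.28 CPM on day 5) and Cfap43 (8.17 and 3.11) were higher, and Cfap57 (1.55 and 8.30) and Cfap97 (19.0 and 44.2) were lower. In Pou4f3-positive cells Cfap57 had 1.95 CPM on day 25 and 10.4 CPM on day 5, so it was lower on day 25 in both classes. The day 25 ratio of Pou4f3-positive to other Epcam-positive cells ran from 4.82 for Dynlrb2 and 5.32 for Rsph4a to 24.9 for Tekt1 and 93.2 for Cfap206; the part of free RNA in the low levels of other Epcam-positive cells was not tested. In Otor-high cells 3 of 23 genes were higher day 5 over expansion and 0 lower (21.3% and 4.99% of all), and 3 of 28 were higher day 25 over day 5 and 1 lower (15.8% and 5.96%); the lower one was Ift20, with 100 CPM on day 25 and 217 CPM on day 5. Day 25 over expansion, 6 of 29 genes were higher and 1 lower in other Epcam-positive cells (25.8% and 11.8% of all), and 8 of 27 were higher and 0 lower in Otor-high cells (37% and 7.65% of all), so neither share of higher genes exceeded the background.

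The rest of the ciliary machinery was read from a list of 132 genes in the table, sorted by role. In Pou4f3-positive over other Epcam-positive cells 28 of 81 measured genes were higher and 7 lower in expansion, 57 of 108 and 4 on day 5, and 49 of 100 and 3 on day 25. Other genes of the motile axoneme were higher in 14 of 20, 27 of 32 and 22 of 26 measured cases, and genes that assemble dynein arms in 2 of 5, 6 of 10 and 5 of 9. Transition zone genes, which form the gate at the cilium base, were higher in 4 of 15, 10 of 19 and 6 of 19, and genes of the basal body and ciliary GTPases in 0 of 11, 1 of 13 and 1 of 13. Factors of multiciliogenesis were not higher in any library. Of these, Ccno, Mcidas and Deup1 stayed under 5 CPM in both classes of each library, so they could not be called. Of all measured genes 12.7%, 19% and 20.7% were higher in the same comparisons. Many genes of this list can be measured through the Pou4f3-positive class alone, which makes such counts large by selection. Counts with at least 5 CPM in both classes are not given for this list.

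All 3 kinocilium genes of that list were higher in each library. Kncn (kinocilin), named after the kinocilium, had 30.9, 69.1 and 77.8 CPM in Pou4f3-positive cells against 0.0777, 0.265 and 1.00 CPM in other Epcam-positive cells. Cdh23 and Pcdh15, the cadherins of tip links and kinociliary links, had 88.5, 83.7 and 44.8 CPM and 94.7, 78.7 and 150 CPM in Pou4f3-positive cells, against 0.365, 0.441 and 0.796 CPM and 3.61, 6.29 and 18.9 CPM. Kncn did not share the day 5 peak, as its day 25 level was within 2-fold of that on day 5. Dnaic2, an outer arm intermediate chain, did follow it, with 32.9, 78.0 and 22 CPM against 0.552, 0.485 and 0.531 CPM, and Ccdc65, of the complex that governs dynein arms, had 24.7, 70.3 and 43.8 CPM against 1.04, 3.49 and 1.18 CPM.

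A few ciliary genes were lower in Pou4f3-positive cells. Tulp3, which brings receptors into primary cilia with IFT-A, had 9.27, 15.2 and 8.78 CPM there against 37.5, 33.3 and 67.2 CPM in other Epcam-positive cells. Ttc21b, an IFT-A subunit, had 3.09, 1.24 and 1.72 CPM against 8.56, 8.79 and 7.94 CPM. Tmem237, of the transition zone, had 29.6 and 8.00 CPM against 81.5 and 44.2 CPM on days 5 and 25. Day 25 over day 5 within Pou4f3-positive cells, 26 of 109 measured genes of the wider list were lower and 4 higher, and among its 32 measured axonemal genes 14 were lower and 0 higher, beside 9.78% lower and 18.1% higher of all measured genes.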

How the data were processed

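Raw UMI counts per gene and barcode were deposited by the authors as 1 matrix per library, made from 10x Genomics Single Cell 3' v3 libraries counted in Cell Ranger; per the file headers the day 25 matrix came from release 3.1.0 and both others from release 3.0.1. Builds GRCm38 and hg38 are listed in the submitters' processing notes; the annotation release, the cell calling and the use of strand are not given in the sources used here. Barcodes with fewer than 500 genes (935, 550 and 120 in the expansion, day 5 and day 25 libraries) or over 20% mitochondrial UMIs (a further 167, 52 and 229) were left out. Doublets were called against simulated ones (1500 variable genes, 30 components) and removed. Calls took away 10.6%, 4.50% and 2.20% of cells where capture rates would give 23.3%, 11.6% and 5.29%, which leaves some doublets in.

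A Pou4f3-positive cell also had under 1000 CPM of Otor, an Otor-high cell at least 3 Otor and fewer than 2 Pou4f3 UMIs, and an other Epcam-positive cell under 1000 CPM of Otor. UMIs were summed per class and scaled to CPM; mitochondrial genes were left out of counts over all genes. For shares, cells were thinned to 2000 UMIs. No test was run, since each group held 1 library. Alternatives were TMM (edgeR 4.0.16) and median of ratios scaling, pseudocount, level filter, doublets, depth, class bounds and cell weights.

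The genes, classes and gene lists were chosen with earlier results of these data known. Genes were named by a rule: Foxj1, Rfx2, Rfx3 and Dynlrb2, the 3 highest of each family, and those with the largest differences in each comparison; others were chosen after their values were seen, as were the counts with 5 CPM in both groups. Positions are from GENCODE M21 and promoters from RefSeq (GRCm38.p6), by gene ID and symbol. Python (numpy 2.4.6, pandas 2.3.3, scipy 1.17.1) and R 4.3.3 were used.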

Additional observations from a re-analysis of the deposited data

Results flagged for a closer look

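Cfap43, a gene of the axoneme whose loss affects sperm tails in mice, differed in direction between classes from day 5 to day 25. The log2 ratio of CPM + 1, day 25 over day 5, was -2.16 in Pou4f3-positive cells (5.45 CPM on day 25 and 27.8 CPM on day 5), 1.16 in other Epcam-positive cells (8.17 and 3.11 CPM) and 1.40 in Otor-high cells (19.0 and 6.60 CPM). It was singled out because the classes moved in opposite ways past 2-fold. The difference was not tested, since each time point was 1 library. Pou4f3-positive cells held 17.4% of the Cfap43 UMIs of the day 5 library and 16.3% of those of day 25, so most of its UMIs lay outside that class at both times. The class held 3.08% of all UMIs on day 5 and 24.8% on day 25, so its Cfap43 share was above that on day 5 and under it on day 25.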

How the results depend on the processing

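Single calls were followed for the cilium genes named by the rule above. Medians were followed for the axonemal and IFT genes in comparisons with Pou4f3-positive cells, though not with cells weighted equally. None of these calls changed direction and none of these medians changed sign under an alternative, but medians of all genes did: with TMM scaling in whole libraries as given above and to -0.10 and -0.08 in day 5 and day 25 Pou4f3-positive over other Epcam-positive cells (0.05 and 0.14 as reported), and with called doublets kept to 0.01 in expansion (-0.06 as reported). Using only cells with at least 2000 UMIs, or keeping doublets, moved no count of cilium genes and no axonemal or IFT median by over 1.5 times. Of the single calls followed, 8 were lost with doublets kept and 0 with the depth minimum. No paired analysis was possible because each group held 1 library, and for the same reason no library could be left out. With TMM and with median of ratios scaling alike, genes higher were 2 in day 25 Otor-high over other Epcam-positive cells and 9 in day 25 over expansion libraries, and genes lower were 4 in day 25 over day 5 libraries, 1 in day 25 over expansion libraries and 2 in day 25 over expansion Pou4f3-positive cells; median of ratios also gave 1 lower in day 5 over expansion libraries. A pseudocount of 5 CPM gave axonemal medians of 1.77, 1.49 and 1.33 (expansion, day 5, day 25; Pou4f3-positive over other Epcam-positive), 1 higher and 1 lower in day 25 and 0 lower in expansion Otor-high cells, and 0 lower in day 25 over day 5 libraries. A minimum of 20 CPM gave 19 and 19 higher in day 5 and day 25 Pou4f3-positive over other Epcam-positive cells (day 5 axonemal median 3.75); within Pou4f3-positive cells 13 higher day 5 over expansion, 4 higher and 7 lower day 25 over day 5, and 6 higher and 0 lower day 25 over expansion; in whole libraries 1 higher and 0 lower day 25 over day 5 and 5 higher day 25 over expansion; and in Otor-high cells 1 higher on day 25 and 0 lower in all 3 libraries. With no minimum the axonemal medians were 0.68, 1.31 and 0.90, and 0.82 day 5 over expansion within Pou4f3-positive cells; 29 genes were higher in expansion Pou4f3-positive cells, 2 lower day 5 over expansion and 4 lower day 25 over expansion within the class; whole libraries gave 10, 12 and 26 higher (day 5 over expansion, day 25 over day 5, day 25 over expansion); Otor-high cells gave 2 higher and 7 lower on day 5 and 7 higher and 9 lower on day 25. These last changes come from the number of genes tested. Pou4f3 from 1 UMI gave 16 higher day 5 over expansion and a day 5 axonemal median of 2.20; from 3 UMIs, 0 lower day 25 over expansion; and Otor from 2000 CPM, 2 lower in that comparison. Cells weighted equally gave 8 higher in day 5 over expansion libraries, 0 lower in day 25 over day 5 libraries and 1 lower in day 5 Pou4f3-positive over other Epcam-positive cells. For the other moves the cause was not tested. Depth limits the expansion Pou4f3-positive class most: at 971250 UMIs, 3 UMIs are 3.09 CPM, so genes at 0 there were not detectable below that level.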

Other observations

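Other known cilium genes differed in how they divided between the classes. Dnaic1, an outer arm intermediate chain like Dnaic2, had 1.03, 8.69 and 2.67 CPM in Pou4f3-positive cells of the expansion, day 5 and day 25 libraries, against 7.79, 1.07 and 2.14 CPM in other Epcam-positive cells, so that the 2 chain genes ran in opposite ways in expansion. Its expansion value in Pou4f3-positive cells rests on 1 UMI. Myb, which acts early in multiciliated cells and in dividing cells, had 2.06 CPM (2 UMIs) in expansion Pou4f3-positive cells against 10.4 CPM in other Epcam-positive cells, where cycling markers summed to 185 and 590 CPM. Cc2d2a, of the transition zone, had 4.12, 5.22 and 6.39 CPM against 11.8, 17.0 and 13.4 CPM.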
